A study of Mus musculus with 14 samples.

Results

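The glucose transporter genes Slc2a1 and Slc2a3 were each read by 1 probe of the array (ILMN_1258159 for Slc2a1 and ILMN_2616565 for Slc2a3). They are 2 of 16593 annotated genes and 2 of 25697 probes, and were taken by symbol from the probe annotation. Both probes had a detection p-value under 0.05 on all 14 arrays and entered the tests of 14742 probes.

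Slc2a1 encodes GLUT1 and Slc2a3 encodes GLUT3, facilitative transporters of the SLC2 family that let glucose pass down its gradient across the plasma membrane. GLUT1 is found in most tissues and is prominent in erythrocytes and at the blood-brain barrier. GLUT3 has a high affinity for glucose and is prominent in neurons and in the preimplantation mouse embryo. Glucose that enters is phosphorylated by a hexokinase, which traps it in the cell ahead of glycolysis. Both transporter genes are known targets of the hypoxia-inducible factors.

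Mouse cells of 6 groups were profiled on Illumina MouseRef-8 v2.0 arrays, on which beads carry gene-specific probes. Induced pluripotent stem cells (iPSC) from tail tip skin fibroblasts of 1.5-year-old mice, made with a doxycycline-inducible ZSCAN10 and kept in 2 µg/ml doxycycline, form A-iPSC-ZSCAN10 (clones 3 and 7). The same kind of cells without ZSCAN10 form A-iPSC (clones 16 and 19), and iPSC from E17.5 embryonic skin fibroblasts form Y-iPSC (clones 12 and 4). Retroviruses delivered Oct4, Sox2, Klf4 and Myc in all iPSC. Embryonic stem cells (ESC D and ESC H) have no strain or age in the labels. The starting fibroblasts form A-SC (an array without a code, 1.3 and 1.4) and Y-SC (an array without a code, 16 and 17). Fibroblasts came from B6CBAF1 mice and grew in 10% serum. iPSC and ESC grew in 15% serum with LIF at 1000 U/ml.

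Donor age is confounded with body site and developmental stage, and ZSCAN10 with doxycycline and with separate derivation of the lines. Whether the arrays within a group came from separate cultures or mice is not stated, and p-values then measure no more than the spread between these samples, which may be technical. Between 47.6% and 52.3% of the probes were detected per array, with median intensities of 110.656 to 147.6. Precision is limited by the number of arrays. Arrays of 1 group correlated at 0.923 to 0.986 across probes. The authors' intensities of 4 fibroblast arrays (A-SC 1.3, A-SC 1.4, Y-SC 16 and Y-SC 17) were written with 1 decimal and the other 10 with more, here called 2 export formats. The highest intensity was 30939 to 34281 on those 4 arrays and 10892 to 17683 on the other 10, so deposited intensities may not share a scale across the formats. Of 18 fibroblast markers, 16 were detected on every array of A-SC and of Y-SC, and of 23 naive pluripotency markers 22 were detected on both ESC arrays. Among iPSC the count of naive markers was 15 in A-iPSC-ZSCAN10, 11 in A-iPSC and 14 in Y-iPSC, and Nanog and Esrrb were not detected on either A-iPSC array. The naive list includes introduced genes: Zscan10 itself, Pou5f1 (Oct4), Sox2 and Klf4. Whether their probes read the introduced copies was not tested. Zscan10 averaged 8.34 in A-iPSC-ZSCAN10 and 4.83 in A-iPSC on the normalized log2 scale, a rise of 3.51 ± 0.38 (adjusted p = 0.000225), and 1 of 2 A-iPSC arrays detected it.

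RefSeq (GRCm38.p6) gave a promoter for 1 of the 2 genes, Slc2a1. It is shown because genes of the hypoxia pathway are described below. The window runs from 250 bases before to 50 bases after the annotated start, on the plus strand at chr4:119108495-119108794, and holds 65.3% G and C. Capitals mark the motifs searched on both strands.
Slc2a1 promoter: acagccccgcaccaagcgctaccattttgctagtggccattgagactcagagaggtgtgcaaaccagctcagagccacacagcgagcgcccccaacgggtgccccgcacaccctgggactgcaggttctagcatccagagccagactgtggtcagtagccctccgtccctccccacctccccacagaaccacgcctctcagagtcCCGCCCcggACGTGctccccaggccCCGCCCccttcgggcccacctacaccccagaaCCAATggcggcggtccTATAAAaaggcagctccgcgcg
The core of the hypoxia response element, ACGTG, occurs 1 time, beginning at base 215 of the window, and 19.6% of the 32851 RefSeq promoter windows of this length hold it on either strand. The GC box GGGCGG occurs 2 times, both on the minus strand and so printed as its reverse complement, and 35.7% of windows hold it. CCAAT occurs 1 time (37.4% of windows) and the TATA motif TATAAA 1 time (13.6% of windows). Both lie after the annotated start, at positions +13 and +29. The E-box CACGTG, which contains the reverse complement of the hypoxia core, does not occur in this window and is held by 7.15% of windows. These matches are a description of letters and no binding was measured.

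Slc2a3 was bright in A-iPSC-ZSCAN10, Y-iPSC and ESC and near the fibroblast level in A-iPSC. Its intensity, as deposited and on a linear scale, was 3223 and 3669 on the A-iPSC-ZSCAN10 arrays and 380 (clone 16) and 146 (clone 19) on the A-iPSC arrays. It was 7199 and 6151 in Y-iPSC, and 7509 and 7058 in ESC. Fibroblast arrays lay between 163 and 323: 163, 263 and 252 in A-SC, and 323, 287 and 238 in Y-SC. No array of A-iPSC overlapped those of A-iPSC-ZSCAN10, Y-iPSC or ESC. The A-iPSC pair enclosed the fibroblasts, with clone 16 above and clone 19 below all 6 fibroblast arrays.

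After background correction and normalization, Slc2a3 averaged 11.49 ± 0.12 in A-iPSC-ZSCAN10, 7.03 ± 1.60 in A-iPSC, 12.93 ± 0.20 in Y-iPSC and 12.94 ± 0.15 in ESC on the log2 scale (SD, n = 2 each). It averaged 7.12 ± 0.50 in A-SC and 7.42 ± 0.39 in Y-SC (SD, n = 3 each). The SD of A-iPSC was the largest of the 6 groups. On the linear normalized scale the A-iPSC clones stood at 3.44% and 0.557% of the ESC mean and the A-iPSC-ZSCAN10 clones at 34.3% and 38.5%. The Y-iPSC clones stood at 109% and 89.5% of it.

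**Figure D1:**
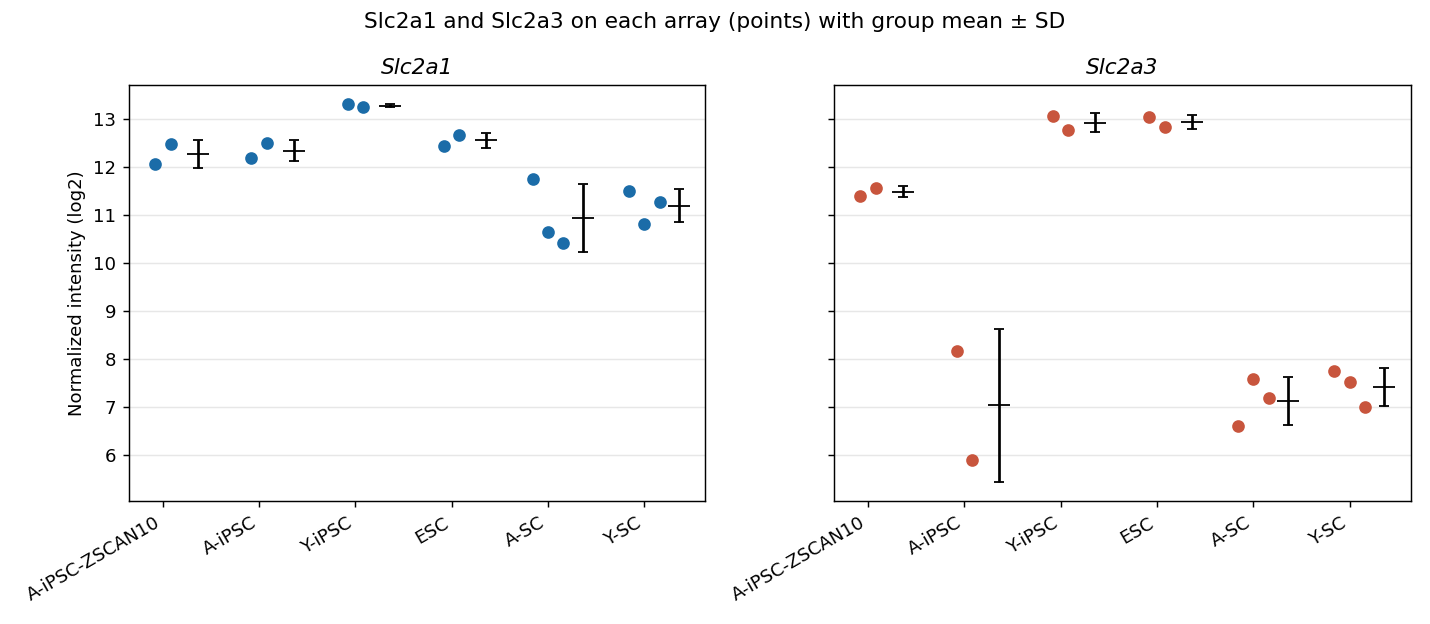
Normalized intensity (log2) of Slc2a1 (left) and Slc2a3 (right) on each of 14 arrays, by group. Each point is an array, and the bar beside it gives the group mean ± SD. Slc2a3 reads 8.16 and 5.90 on the A-iPSC arrays, while every array of A-iPSC-ZSCAN10, Y-iPSC and ESC lies above 11. Slc2a1 lies above 12 on all iPSC and ESC arrays.

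From high to low, the Slc2a3 group means ran ESC, Y-iPSC, A-iPSC-ZSCAN10, Y-SC, A-SC and A-iPSC. ESC and Y-iPSC overlapped, as did Y-SC with A-SC and A-SC with A-iPSC. Y-iPSC and A-iPSC-ZSCAN10 did not overlap but did not pass the test between them, and A-iPSC-ZSCAN10 against Y-SC was not tested, although their arrays did not overlap. For Slc2a1 the order was Y-iPSC, ESC, A-iPSC, A-iPSC-ZSCAN10, Y-SC and A-SC. ESC overlapped with A-iPSC, A-iPSC with A-iPSC-ZSCAN10, and Y-SC with A-SC. Y-iPSC did not overlap with ESC, without passing the test. For 2 arrays against 2, a lack of overlap has a probability of 0.333 without any difference.

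Slc2a1 was bright on every array and higher in all pluripotent groups than in fibroblasts. Its deposited intensity was 4974 and 6440 in A-iPSC-ZSCAN10, 4355 and 4986 in A-iPSC, 8029 and 7446 in Y-iPSC and 5630 and 6687 in ESC. The A-SC arrays read 2871, 1496 and 1355, and the Y-SC arrays 3224, 1958 and 2874. The lowest pluripotent array was thus above the highest fibroblast array. In both fibroblast groups the highest value came from the array without a code, which has the export format of the iPSC arrays. On the normalized log2 scale Slc2a1 averaged 12.28 ± 0.29 in A-iPSC-ZSCAN10, 12.35 ± 0.21 in A-iPSC, 13.29 ± 0.03 in Y-iPSC and 12.56 ± 0.15 in ESC (SD, n = 2 each), 10.94 ± 0.71 in A-SC and 11.20 ± 0.35 in Y-SC (SD, n = 3 each).

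The first comparison asks how iPSC of aged donors differ from iPSC of young donors. Slc2a3 was 59.5-fold lower in A-iPSC than in Y-iPSC, a log2 change of -5.90 ± 0.57 (SE) with an adjusted p of 0.000112. Adjusted p-values here and below come from limma with Benjamini-Hochberg adjustment over the tested probes, and 4.1% of tested probes were called lower in this comparison. By p-value the Slc2a3 probe ranked 46 among the 14742. The change was -7.03 without A-iPSC 16 and -4.77 without A-iPSC 19, and Slc2a3 passed in both fits. Slc2a1 was also lower, at -0.94 ± 0.39, with no overlap between the groups, but did not pass (adjusted p = 0.154). The 95% interval of that difference, not adjusted for multiple testing, ran from -1.80 to -0.08.

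Summed levels of cell type markers also differed here. The summed linear level of 14 keratinocyte markers was 816 to 837 in A-iPSC and 14076 to 16860 in Y-iPSC, with Krt5 and Trp63 undetected in both groups. That of 11 neural markers was 2012 to 2463 in A-iPSC and 7340 to 7406 in Y-iPSC, with Tubb3 and Snap25 undetected in both. For 15 trophectoderm markers it was 2013 to 3270 in A-iPSC and 5372 to 8160 in Y-iPSC, with Cdx2 and Eomes undetected in A-iPSC. Macrophage markers (11) summed to 1289 to 3497 in A-iPSC and 200 to 260 in Y-iPSC, with Ptprc and Adgre1 undetected in both, and erythroid markers (9) to 1384 to 2263 in A-iPSC and 2817 to 4102 in Y-iPSC, with Gata1 and Alas2 undetected in both. The naive pluripotency sum was 13071 to 13306 in A-iPSC and 22738 to 29530 in Y-iPSC. Of the tested keratinocyte markers 7 of 10 fell and 0 rose, of the naive markers 5 of 22 fell and 0 rose, and of the neural markers 1 of 6 fell and 0 rose. Of the trophectoderm markers 1 of 12 rose and 0 fell, of the macrophage markers 2 of 7 rose and 0 fell, of the erythroid markers 1 of 5 rose and 1 fell, and of the fibroblast markers 1 of 16 rose and 0 fell. Over all 10004 tested genes, taken by 1 probe each, 6.12% were called higher and 4.38% lower. Their part in the Slc2a3 difference was not tested. In bulk RNA, fewer cells that carry a transcript and less of it per cell cannot be told apart.

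Added ZSCAN10 was compared with A-iPSC next. Slc2a3 rose 22.0-fold in A-iPSC-ZSCAN10 relative to A-iPSC (log2 change 4.46 ± 0.57, adjusted p = 0.000645). In this comparison 7.33% of tested probes were called higher, 1080 against 1234 lower, and under median scaling 1515 were higher and 963 lower. The Slc2a3 change was 5.59 without A-iPSC 16 and 3.33 without A-iPSC 19, and passed in both fits. Slc2a1 averaged 12.28 in A-iPSC-ZSCAN10 and 12.35 in A-iPSC, a log2 difference of -0.07 ± 0.39 with an interval of -0.93 to 0.79 (adjusted p = 0.938). This comparison and the previous one share the A-iPSC arrays.

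Several marker lists stood apart in these groups. Keratinocyte markers summed to 9106 to 12224 in A-iPSC-ZSCAN10 and 816 to 837 in A-iPSC, with Krt5 and Trp63 undetected in both. Neural markers summed to 6016 to 8465 in A-iPSC-ZSCAN10 and 2012 to 2463 in A-iPSC, with Tubb3 and Snap25 undetected in both. On the ESC arrays the keratinocyte sum was 3339 to 4387 and the neural sum 2495 to 2704. Fibroblast markers summed to 17456 to 26112 in A-iPSC-ZSCAN10 and 7530 to 8585 in A-iPSC. In the fibroblast groups these markers summed to 49989 to 90997, and in ESC to 13839 to 15605. The naive pluripotency sum was 17352 to 25109 in A-iPSC-ZSCAN10, against 13071 to 13306 in A-iPSC. The trophectoderm sums overlapped, at 2570 to 2838 in A-iPSC-ZSCAN10 and 2013 to 3270 in A-iPSC. The macrophage sum was lower, at 343 to 422 in A-iPSC-ZSCAN10 and 1289 to 3497 in A-iPSC, and the erythroid sum was 2309 to 2949 in A-iPSC-ZSCAN10 and 1384 to 2263 in A-iPSC. Of the tested keratinocyte markers 5 of 10 rose and 0 fell, of the fibroblast markers 7 of 16 rose and 1 fell, and of the naive markers 5 of 22 rose and 1 fell. The introduced Zscan10 is among the naive markers that rose. Of the trophectoderm markers 1 of 12 rose and 1 fell, of 7 macrophage and 5 erythroid markers 1 each fell and 0 rose, and of 6 neural markers 0 passed. Over all genes, 7.78% were called higher and 8.38% lower. Whether cells of these types were present was not tested, nor was their part in the Slc2a3 difference.

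Against Y-iPSC, both transporters were lower in A-iPSC-ZSCAN10 without passing the test. Slc2a3 was at -1.44 ± 0.57 (adjusted p = 0.293, interval -2.69 to -0.18) and Slc2a1 at -1.01 ± 0.39 (adjusted p = 0.278, interval -1.87 to -0.15). Neither gene's arrays overlapped between the groups, which for 2 arrays against 2 has a probability of 0.333 without any difference. The share of all probes without overlap was not counted. By adjusted p, 1.34% of tested probes were called in either direction. Differences of 2.71-fold and 2.02-fold were thus not called with 2 arrays a group.

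Set against ESC, Slc2a3 separated A-iPSC from the other iPSC. It was 60.1-fold lower in A-iPSC (log2 change -5.91 ± 0.57, adjusted p = 2.83e-05), where 17.7% of tested probes were called lower. Without A-iPSC 16 the change was -7.04 and without A-iPSC 19 it was -4.78, and both passed. It was at -1.45 ± 0.57 in A-iPSC-ZSCAN10 (adjusted p = 0.129, interval -2.71 to -0.20) and at -0.01 ± 0.57 in Y-iPSC (adjusted p = 0.992, interval -1.27 to 1.24). The A-iPSC-ZSCAN10 difference passed in 4 of 12 alternative settings, among them the fit of these 4 arrays alone (adjusted p = 0.00411). Slc2a1 did not pass against ESC in any iPSC group, at -0.28 ± 0.39 in A-iPSC-ZSCAN10, -0.21 ± 0.39 in A-iPSC and 0.73 ± 0.39 in Y-iPSC (adjusted p = 0.714, 0.725 and 0.253). The share of probes called in either direction was 12.3% in A-iPSC-ZSCAN10 and 14.1% in Y-iPSC.

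**Figure D2:**
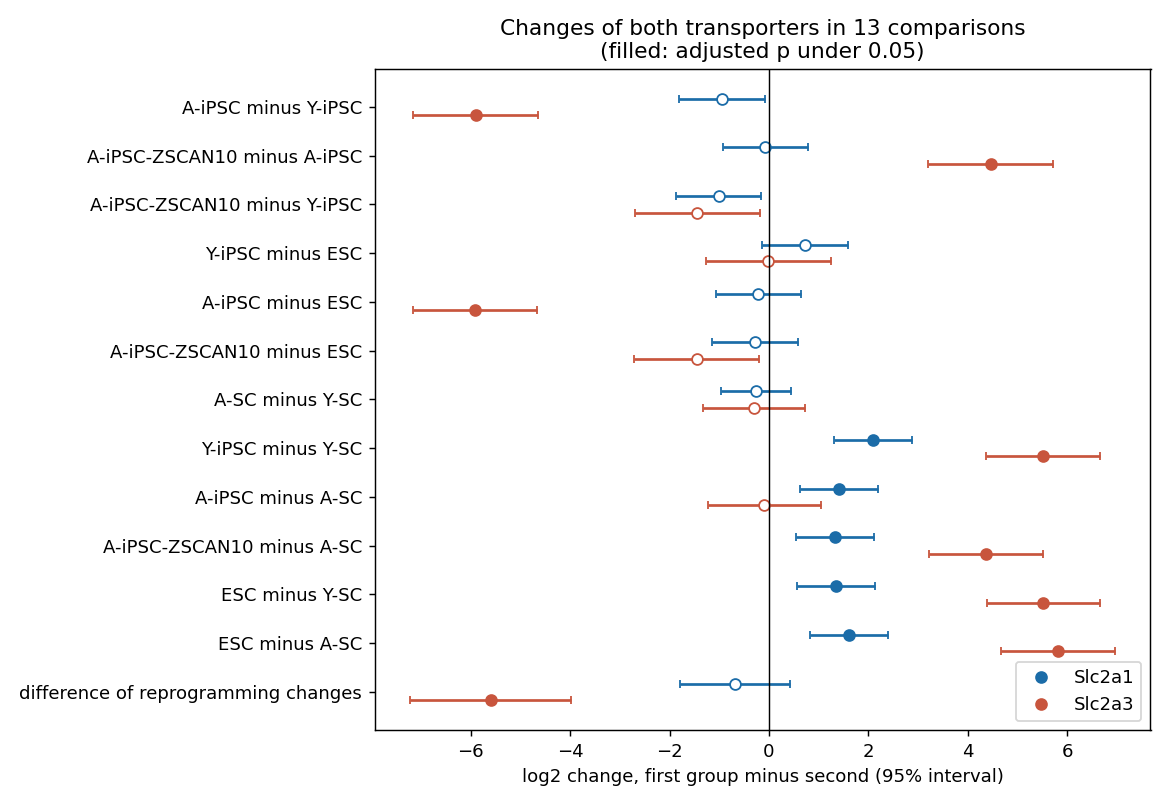
Log2 change of Slc2a1 (blue) and Slc2a3 (red) in 13 comparisons, first group minus second, with 95% intervals; filled points passed at an adjusted p under 0.05. Slc2a3 lies near -6 for A-iPSC minus Y-iPSC and A-iPSC minus ESC and at -0.09 for A-iPSC minus A-SC, while Slc2a1 passed only in the comparisons of iPSC or ESC with fibroblasts.

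Neither gene passed the test between the fibroblasts of the 2 donor ages. Slc2a3 was at -0.30 ± 0.47 in A-SC relative to Y-SC (adjusted p = 0.889, interval -1.32 to 0.73) and Slc2a1 at -0.26 ± 0.32 (adjusted p = 0.847, interval -0.96 to 0.44). In this comparison 0.414% of tested probes were called. The arrays of A-SC and Y-SC overlapped for both genes.

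Reprogramming was read as each iPSC group against the fibroblasts of its donors. Slc2a3 rose 45.4-fold in Y-iPSC over Y-SC (log2 change 5.51 ± 0.52, adjusted p = 2.49e-05) and 20.6-fold in A-iPSC-ZSCAN10 over A-SC (4.37 ± 0.52, adjusted p = 0.000247). Tested probes called higher made up 11.7% and 11.2% in these comparisons. In A-iPSC it stood at -0.09 ± 0.52 relative to A-SC (adjusted p = 0.919, interval -1.24 to 1.05). The sign of that last value changed with the A-iPSC clone left out, at -1.22 without A-iPSC 16 and 1.04 without A-iPSC 19, and neither value passed. ESC stood above Y-SC and A-SC by 5.52 ± 0.52 and 5.82 ± 0.52 (adjusted p = 2.19e-05 and 1.36e-05), where 16.9% and 21.6% of tested probes were called higher.

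Whether the change from fibroblast to iPSC differed between donors was tested as a difference of differences. For Slc2a3 the change in aged donors minus that in young donors was -5.60 ± 0.74 (adjusted p = 0.00195), and 1.42% of tested probes were called lower in this test. Without the 4 fibroblast arrays of the second export format, which leaves 1 array in each fibroblast group, it was -4.73 and did not pass (adjusted p = 0.0765). For Slc2a1 it was -0.68 ± 0.51 (adjusted p = 0.51).

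Slc2a1 rose in every pluripotent group over fibroblasts. It rose 2.52-fold in A-iPSC-ZSCAN10 over A-SC (log2 change 1.33 ± 0.36, adjusted p = 0.0222) and 4.25-fold in Y-iPSC over Y-SC (2.09 ± 0.36, adjusted p = 0.00158). In A-iPSC over A-SC it rose 2.65-fold (log2 interval 0.62 to 2.19, adjusted p = 0.0109), where 17.6% of tested probes were called higher. ESC stood at 1.36 ± 0.36 over Y-SC (adjusted p = 0.0137) and 1.62 ± 0.36 over A-SC (adjusted p = 0.00425). The Y-iPSC call held in the 17 alternative fits run. With the export format as a block, or with only the first-format fibroblast arrays, the A-iPSC change over A-SC was 0.85 and 0.60 and no longer passed (adjusted p = 0.0607 and 0.154), and the A-iPSC-ZSCAN10 change was 0.78 and 0.53 (adjusted p = 0.108 and 0.217). The A-iPSC call was also lost without A-iPSC 19 (1.25, adjusted p = 0.0926), the ESC call over Y-SC with the format block (0.80, adjusted p = 0.0736) and without ESC D or ESC H, the ESC call over A-SC with only the first-format arrays (0.81, adjusted p = 0.0538), and the A-iPSC-ZSCAN10 call without A-SC 1.3, A-SC 1.4 or either A-iPSC-ZSCAN10 clone.

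Of the other SLC2 transporters, 9 were on the array and 5 passed the detection filter: Slc2a6, Slc2a8, Slc2a9, Slc2a10 and Slc2a13. None of these 5 passed in A-iPSC minus Y-iPSC or in A-iPSC-ZSCAN10 minus A-iPSC. Beside them, 6.12% and 4.38% of all 10004 tested genes were called higher and lower in the first, and 7.78% and 8.38% in the second. Slc2a2, the GLUT2 of liver and pancreatic beta cells, Slc2a4, the insulin-responsive GLUT4, Slc2a5, a fructose transporter, and Slc2a12 were detected on no array.

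Between fibroblasts and iPSC the family split. Slc2a10 and Slc2a13, which encodes a proton-coupled myo-inositol transporter, were detected on every fibroblast array and, with their lead probes, on no iPSC or ESC array. By its lead probe, Slc2a10 fell relative to A-SC at least 7.11-fold in A-iPSC-ZSCAN10 and 6.67-fold in A-iPSC (limma adjusted p = 1.13e-05 and 3.92e-06). In these comparisons 9.88% and 15.4% of tested probes were called lower. The lead probe also passed in Y-iPSC relative to Y-SC, where 11.7% were called lower. A second, dim Slc2a10 probe showed a smaller fall, averaging 6.96 in A-SC, 5.30 in A-iPSC-ZSCAN10 and 5.27 in A-iPSC on the log2 scale. That probe was detected on both arrays of A-iPSC-ZSCAN10 and of ESC, and on 1 of 2 arrays in A-iPSC and in Y-iPSC. Slc2a13 fell at least 7.39-fold in A-iPSC-ZSCAN10, 6.94-fold in A-iPSC and 5.80-fold in Y-iPSC (adjusted p = 0.00233, 0.000698 and 0.00252). These folds are bounds against the lowest signal of a detected probe on the iPSC arrays. Slc2a6, which encodes GLUT6, a transporter of lysosomal membranes, rose by 1.89 ± 0.48 in A-iPSC over A-SC and by 1.47 ± 0.48 in Y-iPSC over Y-SC (adjusted p = 0.0104 and 0.0445). Its intensity was 344 and 283 in A-iPSC-ZSCAN10, 527 and 416 in A-iPSC and 345 and 250 in Y-iPSC, so that A-iPSC was the highest iPSC group for Slc2a6 and the lowest for Slc2a3. Slc2a6 was at 1.18 in A-iPSC minus Y-iPSC and at -1.26 in A-iPSC-ZSCAN10 minus A-iPSC and passed in neither. Slc2a8, an intracellular transporter, rose by 1.01 ± 0.30 in Y-iPSC over Y-SC (adjusted p = 0.0301), and its other probes were dim.

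Of 3 tested hexokinase genes (Hk1, Hk2 and the ADP-dependent Adpgk), none passed in A-iPSC minus Y-iPSC or in A-iPSC-ZSCAN10 minus A-iPSC. Hk2 had a deposited intensity of 3967 and 5141 in A-iPSC-ZSCAN10, 6810 and 6075 in A-iPSC, 4895 and 5551 in Y-iPSC and 4645 and 5534 in ESC. The A-SC arrays read 958, 2104 and 2114, and the Y-SC arrays 2092, 2216 and 2814. Hk2 rose over fibroblasts in each iPSC group, by 1.14 ± 0.32 in A-iPSC-ZSCAN10, 2.17 ± 0.32 in A-iPSC and 1.44 ± 0.32 in Y-iPSC (adjusted p = 0.0247, 0.000358 and 0.00677). It was thus high in A-iPSC, where Slc2a3 was dim.

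Some genes that act on glucose after it enters moved opposite to Slc2a3 in A-iPSC minus Y-iPSC or in A-iPSC-ZSCAN10 minus A-iPSC. Of 16 tested glycolysis genes below hexokinase, 2 rose, 0 fell and 14 did not pass in A-iPSC minus Y-iPSC, with a list median of 0.46 against -0.01 over all genes. The enolase gene Eno2 rose by 2.76 ± 0.61 and the phosphoglycerate kinase gene Pgk1 by 1.23 ± 0.33 (adjusted p = 0.0158 and 0.0345). The Pgk1 probe was dim, at 225 and 183 in A-iPSC and 151 and 150 in Y-iPSC. In A-iPSC-ZSCAN10 minus A-iPSC, 4 of the 16 fell and 0 rose, with a median of -0.79 against 0.03 over all genes. Of all 10004 tested genes, 6.12% were called higher and 4.38% lower in the first comparison, and 7.78% and 8.38% in the second. The aldolase gene Aldoc fell by 4.47 and Eno2 fell by 3.41 (adjusted p = 0.00078 and 0.00397). Aldoc had an intensity of 488 and 441 in A-iPSC-ZSCAN10 and 6094 and 5261 in A-iPSC. It read 1683 and 3185 in Y-iPSC and 367 and 388 in ESC, groups in which Slc2a3 was bright. Without A-iPSC 16, A-iPSC 19 or A-iPSC-ZSCAN10 7 the count that fell was 2, as under median scaling, and without A-iPSC 16, A-iPSC 19 or Y-iPSC 4 the count that rose in A-iPSC minus Y-iPSC was 0 (1 without Y-iPSC 12).

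In lactate and pyruvate handling, 2 of 8 genes rose and 0 fell in A-iPSC minus Y-iPSC, and 5 fell and 0 rose in A-iPSC-ZSCAN10 minus A-iPSC. The all-gene shares were 6.12% higher and 4.38% lower in the first and 7.78% higher and 8.38% lower in the second, and the list medians 0.23 and -1.45 against -0.01 and 0.03. Bsg encodes basigin, a chaperone of the lactate transporters. It was detected on the A-iPSC arrays alone, at 385 (clone 16) and 1112 (clone 19). It rose at least 19.5-fold in A-iPSC relative to Y-iPSC and fell at least 18.6-fold in A-iPSC-ZSCAN10 relative to A-iPSC (adjusted p = 0.000114 and 0.000104). Without A-iPSC 16 these bounds were 40.0-fold and 38.2-fold, and without A-iPSC 19 they were 9.51-fold and 9.07-fold. Both Bsg probes had this pattern. The lactate exporter gene Slc16a3 fell by 2.63 in A-iPSC-ZSCAN10 minus A-iPSC (adjusted p = 0.0213). Another, dim Slc16a3 probe showed no such fall, at 5.29 and 5.21 in A-iPSC-ZSCAN10 and 4.96 and 5.50 in A-iPSC on the log2 scale. A further Slc16a3 probe was detected on no array. Pdk3 and Pdk2, kinases that inhibit pyruvate dehydrogenase, fell by 1.76 and 1.61 there (adjusted p = 0.0125 and 0.0116). The Pdk2 probe was dim, at 146 and 151 in A-iPSC-ZSCAN10 and 198 and 199 in A-iPSC. The count of 5 was 1 without A-iPSC-ZSCAN10 7 and 2 without any other of these 4 arrays, and 1 gene rose there without A-iPSC-ZSCAN10 3. The count of 2 was 1 without A-iPSC 16, A-iPSC 19 or Y-iPSC 12.

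For glycogen and hexosamine genes the counts were 2 of 9 higher and 0 lower in A-iPSC minus Y-iPSC, and 3 lower and 0 higher in A-iPSC-ZSCAN10 minus A-iPSC. Over all genes 6.12% were called higher and 4.38% lower in the first and 7.78% and 8.38% in the second, and the list medians were -0.04 and -0.35 against -0.01 and 0.03. Pgm1, a phosphoglucomutase, was at 1.38 ± 0.33 in the first and fell by 2.38 in the second (adjusted p = 0.0218 and 0.000888). Of 5 tested pentose phosphate genes and 3 sodium-glucose cotransporters, 0 passed in either comparison. The count of 2, Pygb and Pgm1, was 0 without A-iPSC 19 or Y-iPSC 4 and 1 without A-iPSC 16 or Y-iPSC 12.

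Among 12 genes of glucose transporter trafficking and turnover, 0 passed in A-iPSC minus Y-iPSC and 3 fell in A-iPSC-ZSCAN10 minus A-iPSC, with medians of 0.29 and -0.18 against -0.01 and 0.03 over all genes. In the second, 8.38% of all genes were called lower, and in the first 6.12% were called higher and 4.38% lower. Txnip encodes an arrestin-like protein that promotes removal of GLUT1 from the cell surface. Its intensity was 510 and 494 in A-iPSC-ZSCAN10, 2563 and 4286 in A-iPSC, 791 and 1094 in Y-iPSC and 609 and 962 in ESC. The A-iPSC arrays were the highest of the 14. Txnip fell by 3.44 in A-iPSC-ZSCAN10 minus A-iPSC (adjusted p = 0.00402) and was at 2.10 ± 0.62 in A-iPSC minus Y-iPSC without passing (adjusted p = 0.0525). Arrdc4, a related arrestin-domain gene, fell by 3.02 in A-iPSC-ZSCAN10 minus A-iPSC (adjusted p = 0.00217), with 510 and 612.5 in A-iPSC-ZSCAN10 and 2233 and 3610 in A-iPSC.

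The hypoxia pathway was examined because both transporter genes are its targets. Of 14 tested hypoxia response targets, 4 rose and 0 fell in A-iPSC minus Y-iPSC (median 0.98), and 10 fell and 0 rose in A-iPSC-ZSCAN10 minus A-iPSC (median -1.69). Beside them, 6.12% of all genes were called higher and 4.38% lower in the first comparison and 7.78% and 8.38% in the second, with medians of -0.01 and 0.03. In the first, the carbonic anhydrase gene Car12 rose by 3.31 ± 0.56, with 1 of 2 Y-iPSC arrays detecting it, and the collagen prolyl hydroxylase gene P4ha2 by 2.39 ± 0.44 (adjusted p = 0.00374 and 0.00599). In the second, Ndrg1, a stress-induced gene, fell by 4.25 (adjusted p = 3.86e-06), with 515 and 500 in A-iPSC-ZSCAN10 and 4869 and 6212 in A-iPSC. Ndrg1 read 3345 and 3239 in Y-iPSC, where Slc2a3 was bright, and 300 and 367 in ESC. Adm, the adrenomedullin gene, fell by 4.26 (adjusted p = 0.0021), and 1 of 2 A-iPSC-ZSCAN10 arrays detected it. The count of 4 was 1 without A-iPSC 19, and the count of 10 was 7 without A-iPSC 19 or A-iPSC-ZSCAN10 7. Under the scaling alternatives these counts were 3 to 5 and 9 to 11, with no member moving the other way.

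Of 7 tested genes of the hypoxia-inducible factor pathway itself, 1 rose in A-iPSC minus Y-iPSC and 3 fell in A-iPSC-ZSCAN10 minus A-iPSC. Of all genes, 6.12% were called higher in the first and 8.38% lower in the second. The list medians were 0.45 and -0.99, against -0.01 and 0.03 over all genes. The gene that rose was Vhl, the ubiquitin ligase subunit that targets these factors, at 1.54 ± 0.35 (adjusted p = 0.0169). Egln3, an oxygen-dependent prolyl hydroxylase, fell by 3.53 in the second (adjusted p = 0.000314). Its intensity was 586 and 727 in A-iPSC-ZSCAN10, 4767 and 4737 in A-iPSC, 4796 and 4450 in Y-iPSC and 411 and 545 in ESC. Egln3 was thus as high in Y-iPSC as in A-iPSC, unlike Slc2a3, and low in ESC, where Slc2a3 was high. The factor genes Hif1a and Epas1 passed in neither comparison. The count of 3 was 1 without A-iPSC 16, A-iPSC 19 or A-iPSC-ZSCAN10 7 and under median scaling, and the Vhl rise was lost without A-iPSC 19 or Y-iPSC 4. Hif1a was at 1.29 in the first and -0.99 in the second, and Epas1 at -2.21 and 1.45.

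**Figure D3:**
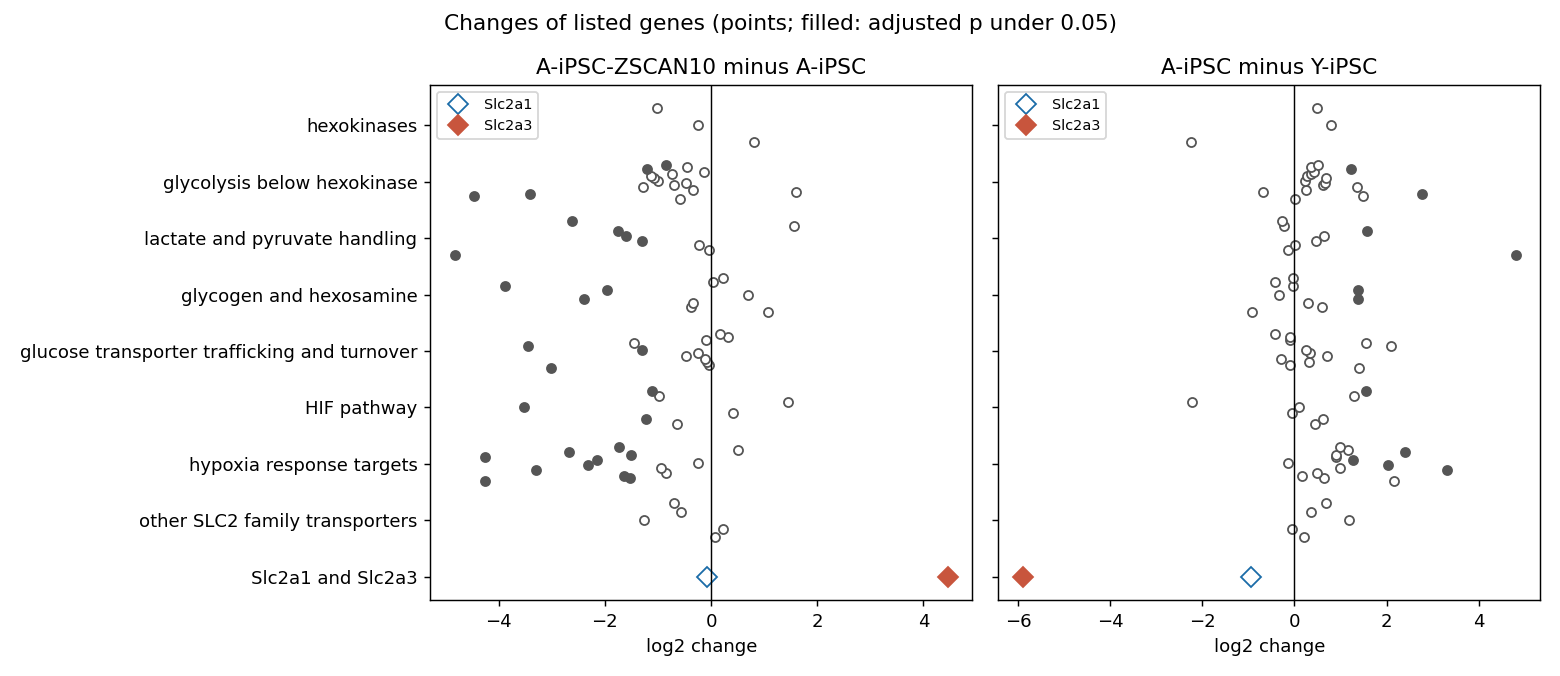
Log2 changes of the listed genes (points, one per gene; filled where the adjusted p is under 0.05) in A-iPSC-ZSCAN10 minus A-iPSC (left) and A-iPSC minus Y-iPSC (right), with Slc2a1 and Slc2a3 as diamonds in the bottom row. On the left Slc2a3 lies at 4.46, while the filled points of the lists lie below 0. On the right Slc2a3 lies at -5.90, while the filled points of the lists lie above 0.

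The genes whose pattern was most like each transporter were named by Pearson correlation of the normalized log2 values over the 14 arrays, among 10002 other genes. For Slc2a3 these were Krt42, a keratin (r = 0.963), Lrrc34 (r = 0.962), Gdf3, a secreted growth factor (r = 0.958), St6galnac2, a sialyltransferase (r = 0.955), and Ltbp4, a binding protein of latent TGF-beta (r = 0.951). All 5 have group means that are low in A-iPSC and in fibroblasts. Krt42 is also on the keratinocyte list and Gdf3 on the naive pluripotency list. For Slc2a1 they were Mme, the peptidase neprilysin (r = 0.942), Nipsnap1 (r = 0.938), Psme1, a proteasome activator subunit (r = 0.934), Nme3 (r = 0.927) and Ddc, the aromatic amino acid decarboxylase (r = 0.927). The arrays fall into groups and share them in every such correlation, so that r mainly describes the order of the group means. Over the 6 iPSC arrays alone r was 0.916 to 0.972 for the Slc2a3 genes and 0.664 to 0.983 for the Slc2a1 genes.

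**Figure D4:**
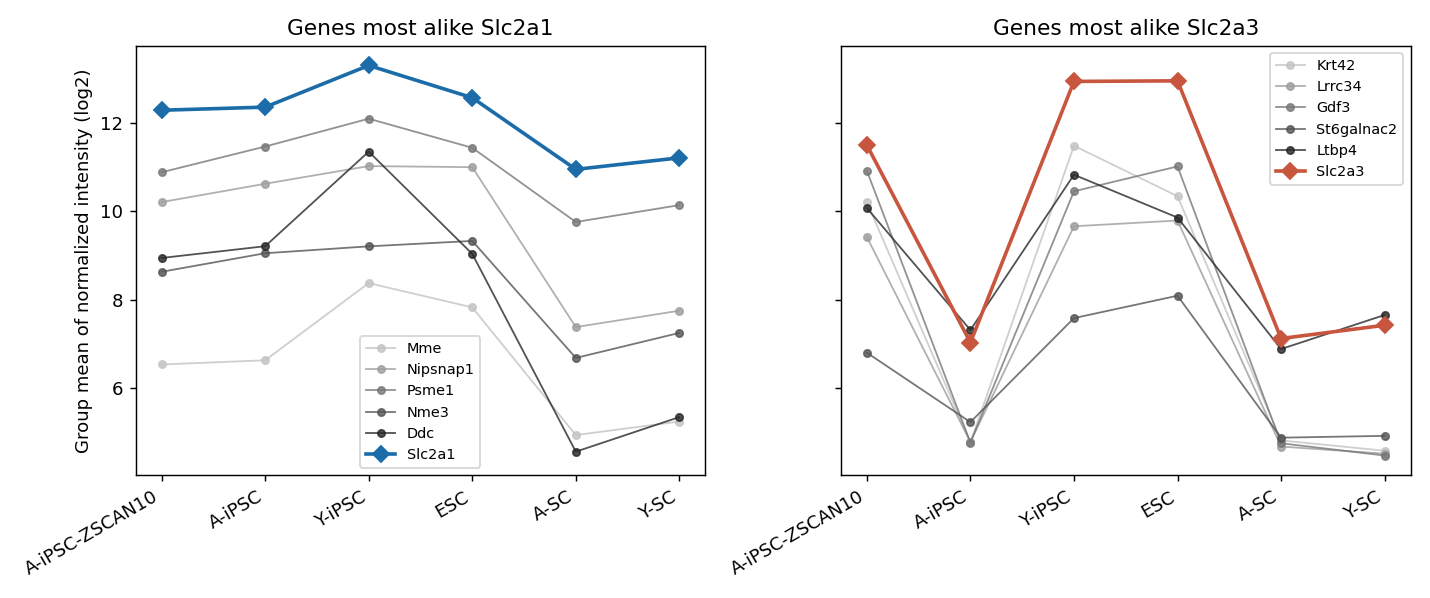
Group means of normalized intensity (log2) of Slc2a1 (left, blue) and Slc2a3 (right, red) with the 5 genes most alike each (grey). Heights of different probes are not comparable. The Slc2a3 genes share a low A-iPSC point and high Y-iPSC and ESC points, and the Slc2a1 genes share low fibroblast points.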

How the data were processed

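Per the file headers, the deposited table holds the signal intensity of each probe and its detection p-value for 14 arrays, called non-normalized; a background step is not given in the sources used here. The authors' second table holds intensity on a linear scale, with equal ranks (Spearman 1) and a common range of 94.67 to 17113, as after quantile normalization; the submitters' processing notes name lumi. No column was left unmatched.

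In R 4.3.3 with limma 3.58.1, neqc (background from negative controls inferred through the detection p-values, offset 16, quantile normalization) gave log2 values. The tests took the 14742 probes (10004 genes) detected, at p under 0.05, throughout 1 group or more. Symbols came from the probe annotation (23978 probes with 1 symbol, 1719 with none), updated by gene ID. A linear model with 1 mean per group (8 residual degrees of freedom, prior 3.633) gave 13 comparisons; the threshold was an adjusted p of 0.05. A gene's lead probe is the tested one with the highest mean. Linear levels are 2 to the normalized value, minus the offset. Named genes were up to 4 passing genes per list in A-iPSC minus Y-iPSC and A-iPSC-ZSCAN10 minus A-iPSC, all measured SLC2, hexokinase and hypoxia-inducible factor pathway genes, and the 5 most alike; not all are printed. The members and the 17 gene lists were chosen with earlier results of these data known. Steps were tested on simulated data. Alternatives were background, offset, normalization, filter, prior, array weights, arrays in the fit, the authors' table, export format and left-out arrays; those on list counts and on the Bsg bound were chosen after seeing the data.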

Additional observations from a re-analysis of the deposited data

Results flagged for a closer look

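The change of Slc2a3 from fibroblast to iPSC differed between aged and young donors by a test of the difference itself: aged minus young donors was -5.60 ± 0.74 on the log2 scale (limma adjusted p = 0.00195). Donor age cannot be told apart here from body site and developmental stage. Slc2a3 stood at -0.09 in A-iPSC relative to A-SC and at 5.51 in Y-iPSC relative to Y-SC. Over the fits that left out 1 array the difference between donors ranged from -6.73 to -4.47 and passed in all 10. It did not pass without the 4 fibroblast arrays of the second export format, which leaves 1 array in each fibroblast group.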

How the results depend on the processing

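Of 442 values from alternative settings (both genes, 13 comparisons), 410 kept their direction and side of the threshold, 15 lost the call, 5 gained it and 12 changed sign. The cause was not tested except where fewer arrays entered. The Slc2a3 calls in A-iPSC minus Y-iPSC, A-iPSC-ZSCAN10 minus A-iPSC and A-iPSC minus ESC held in every setting. Slc2a3 in A-iPSC-ZSCAN10 minus ESC passed at -1.42 without background correction, -1.45 with array weights, -1.34 in the authors' table and -1.45 with only the arrays compared (adjusted p = 0.0236, 0.0249, 0.0266 and 0.00411). In A-iPSC minus A-SC, Slc2a3 was at 0.04 without background correction, 0.03 in the authors' table, 0.00 with the export format as a block and 0.44 without the 4 second-format arrays. Slc2a1 in A-iPSC-ZSCAN10 minus A-iPSC was at 0.16 under median scaling, which moved the median of all probes there to 0.16, against 0.03. With the format block, Slc2a1 did not pass in A-iPSC minus A-SC (0.85), A-iPSC-ZSCAN10 minus A-SC (0.78) or ESC minus Y-SC (0.80). Without the second-format arrays it did not pass in A-iPSC minus A-SC (0.60), A-iPSC-ZSCAN10 minus A-SC (0.53) or ESC minus A-SC (0.81), passed in A-iPSC minus Y-iPSC (-0.94, adjusted p = 0.0372) and was at 0.25 in A-SC minus Y-SC, and the Slc2a3 difference between donors did not pass (-4.73). With only the arrays compared, Slc2a1 did not pass in A-iPSC-ZSCAN10 minus A-SC (1.33).

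Leaving out 1 array at a time, Slc2a3 ranged from -1.22 to 1.04 in A-iPSC minus A-SC (above 0 without A-SC 1.3, at 0.14, and without A-iPSC 19, at 1.04) and from -0.16 to 0.13 in Y-iPSC minus ESC (0.13 without Y-iPSC 4, 0.09 without ESC D). Slc2a1 ranged from -0.27 to 0.13 in A-iPSC-ZSCAN10 minus A-iPSC (0.13 when A-iPSC-ZSCAN10 3 was left out, 0.08 when A-iPSC 19 was). It ranged from 1.07 to 1.74 in A-iPSC-ZSCAN10 minus A-SC, without a call when A-SC 1.3 (1.19), A-SC 1.4 (1.07), A-iPSC-ZSCAN10 3 (1.54) or A-iPSC-ZSCAN10 7 (1.13) was left out. It ranged from 1.14 to 1.81 in A-iPSC minus A-SC (not called without A-iPSC 19, at 1.25) and from 1.17 to 1.51 in ESC minus Y-SC (not called without ESC D, at 1.46, or ESC H, at 1.25). A lone array left in a group was assumed to vary like the other groups.

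Over all probes, calls ranged from 397 to 2042 around 1495 in A-iPSC minus Y-iPSC and from 722 to 4874 around 2314 in A-iPSC-ZSCAN10 minus A-iPSC. In A-iPSC-ZSCAN10 minus Y-iPSC limma with only the arrays compared called 0 of the probes (1747 at an unadjusted p under 0.05), against 198. No paired analysis was run, because the labels do not pair the arrays of a group with those of another.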
